A study of Mus musculus with 12 samples.

Results

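Acute phase protein genes encode plasma proteins whose supply by the liver changes during infection, injury or inflammation. The genes described here are the 10 rows of the deposited count table named *Saa1*, *Saa2*, *Saa3*, *Saa4*, *Hp*, *Hpx*, *Orm1*, *Orm2*, *Lcn2* and *Apcs*, and all 10 were found among its 36228 rows. Liver RNA was sequenced from 3 female and 2 male IDH2 KO mice, which lack *Idh2* in the germ line (idh2-/-) and therefore not only in the liver, and from 4 female and 3 male WT littermates. All 12 mice were of the C57BL/6N strain and 8 to 10 weeks old, no treatment is named for either genotype, and each mouse gave 1 library of single-end 50 bp reads. The question was whether these genes differed between IDH2 KO and WT livers, how they differed between the sexes, and how they varied from mouse to mouse.

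In an acute phase response, interleukin-6 acts on hepatocytes through STAT3, interleukin-1 and tumour necrosis factor act through NF-kB, and C/EBP factors add to both, so that transcription of these genes increases. SAA1 and SAA2 are the serum amyloid A proteins that respond most and travel on high-density lipoprotein, SAA3 is also made outside hepatocytes, for example by macrophages, and SAA4 is the constitutive form. Haptoglobin (*Hp*) and hemopexin (*Hpx*) bind free haemoglobin and free haem, orosomucoids (*Orm1*, *Orm2*) carry small lipophilic molecules, lipocalin-2 (*Lcn2*) binds bacterial siderophores, and serum amyloid P component (*Apcs*) is the pentraxin that responds in mice.

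The libraries held 15323300 to 25019649 reads counted in genes, and levels are given as CPM, which are counts-per-million values, read counts set relative to the library total after TMM scaling (a factor that evens out differences in composition). The 5 IDH2 KO livers had 1 to 7 reads of *Idh2* (0.119 ± 0.112 CPM, SD, n = 5), against 967 to 2363 reads in the 7 WT livers (72.7 ± 24.0 CPM, SD, n = 7). IDH2 KO female 3 stood apart from the other libraries: reads fell in 8531 genes there and in 10482 to 12873 genes elsewhere, and its median correlation with the other libraries was 0.865, against 0.944 or more for each of the others. The 10 genes took 1.82% of its reads, against 0.723% to 1.25% in the other 11 libraries. Its hepatocyte markers summed to 355051 CPM, the highest of all libraries (107287 to 240972 CPM in the other IDH2 KO livers and 147635 to 286201 CPM in WT livers), and its Kupffer cell and macrophage markers summed to 810 CPM (258 to 545 CPM in the other IDH2 KO livers and 171 to 615 CPM in WT livers). The part of these differences in the results was not tested, and for the acute phase genes the main values are also given without this library. In bulk liver RNA, fewer cells of a type and less RNA per cell cannot be told apart.

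*Lcn2*, *Saa3* and *Orm2* had the highest fold changes in IDH2 KO livers relative to WT livers, *Hp*, *Hpx*, *Orm1* and *Saa4* had log2 fold changes of 0.11 to 0.34, and *Apcs* was the only tested gene of the set with a negative fold change. None of these differences passed the test after adjustment over all genes. Of the 10 genes, 8 passed the filter on low counts, and edgeR's quasi-likelihood test with sex in the model called 0 of the 8 at an adjusted p under 0.05. Among all 7618 genes tested, 0.381% were called (29 genes). At an unadjusted p under 0.05, 3 of the 8 (*Lcn2*, *Saa3* and *Orm2*) were higher in IDH2 KO livers, where 3.48% of all genes were, and 0 were lower, where 3.24% of all genes were. Without IDH2 KO female 3, *Lcn2* and *Saa3* kept an unadjusted p under 0.05 and *Orm2* did not. DESeq2 and limma also called 0 of the 8, where they called 65 of 17130 and 20 of 7618 genes in all. Without a filter on low counts, edgeR called *Lcn2* and *Orm2*, where 205 of 17289 genes were called in all. Their values under that setting stand with each gene.

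**Figure D1:**
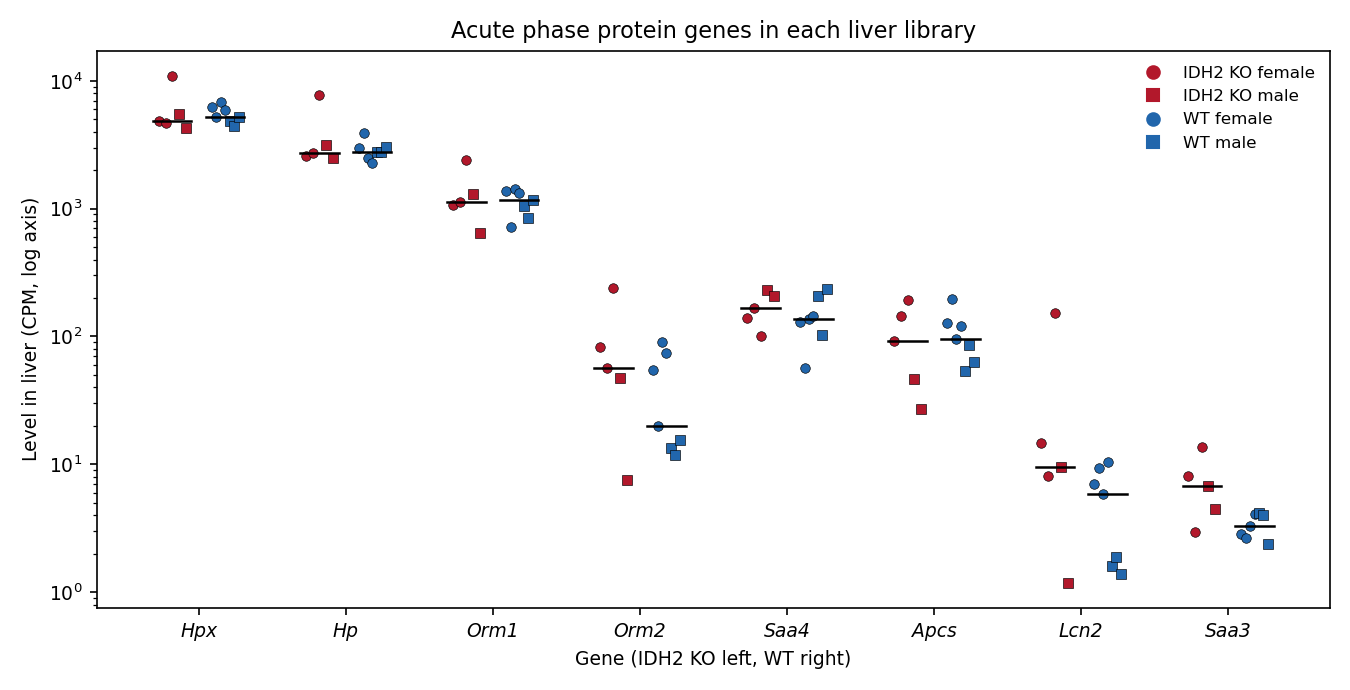
Levels of the 8 acute phase protein genes kept by the filter on low counts in each of the 12 liver libraries, in CPM on a log axis, with IDH2 KO (red) left of WT (blue), circles for females, squares for males and a bar at the median of each genotype. IDH2 KO female 3 is the highest point for *Hpx* (10887 CPM), *Hp* (7766 CPM), *Orm1* (2394 CPM), *Orm2* (241 CPM), *Lcn2* (153 CPM) and *Saa3* (13.8 CPM).

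The 4 serum amyloid A genes lie together on mouse chromosome 7 (GRCm38, GENCODE M21), *Saa3* at chr7:46711998-46715700, *Saa4* at chr7:46727998-46732603 and *Saa1* at chr7:46740497-46742980, all on the minus strand, and *Saa2* at chr7:46751790-46754313 on the plus strand. *Saa1* and *Saa2* are close copies. Their coding sequences of 366 bases are identical at 95.1% of positions, with 18 mismatches and a longest shared run of 73 bases, which exceeds the read length. *Saa1* matches *Saa3* at 76.4% and *Saa4* at 66.8% of aligned positions. The second of the 3 coding exons of *Saa1* (chr7:46741256-46741394, minus strand) and of *Saa2* (chr7:46753418-46753556, plus strand) is shown to make the likeness visible, in coding direction, with the 8 of 139 bases that differ in capitals.
Saa1: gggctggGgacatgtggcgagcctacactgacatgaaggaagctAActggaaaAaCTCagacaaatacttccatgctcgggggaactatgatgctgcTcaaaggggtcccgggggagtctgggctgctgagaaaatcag
Saa2: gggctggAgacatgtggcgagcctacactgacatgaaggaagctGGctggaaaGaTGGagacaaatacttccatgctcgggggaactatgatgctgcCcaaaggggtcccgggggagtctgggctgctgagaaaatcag
Of the 50-base windows along the main transcript, 85.2% of those of *Saa1* and 86.7% of those of *Saa2* were found in no other gene's transcripts. For *Saa3* and *Saa4* this share was 98.2% and 98.6%.

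*Saa1* and *Saa2*, the most inducible members of the family, were at or near 0 in every liver. *Saa2* had 0 reads in all 12 libraries, which allows a level of up to 0.0124 RPM (CPM without the TMM factor) over all libraries, the limit of 3 reads. *Saa1* had 2 reads in the IDH2 KO livers, both in IDH2 KO male 1, and 12 reads in the WT livers, of which WT male 1 had 7, WT male 2 had 2, WT females 1, 2 and 3 had 1 each, and WT female 4 and WT male 3 had 0. The ratio of the *Saa1* level in RPM, IDH2 KO over WT, was 0.249 with an exact 95% interval of 0.0271 to 1.12, and without WT male 1 it was 0.528 (0.0503 to 3.22), so no difference was detectable at this depth. These intervals and limits cover counting error only.

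The zero of *Saa2* is a property of the deposited counts and does not show that the RNA was absent. Other genes that every mouse liver uses were also counted at 0 in all 12 libraries, among them *Cps1* (urea cycle), *Cp* (ceruloplasmin), *Mbl1* and *Mbl2* (mannose-binding lectins) and *Nr3c1* (the glucocorticoid receptor). *Hnf4a*, a transcription factor that defines hepatocytes, had 1 read in all libraries together. Neither *Saa1* nor *Saa2* passed the filter on low counts, so neither entered the main test, and *Saa1* did not pass the threshold when edgeR was run without the filter (adjusted p = 0.777).

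Across the 12 libraries, the 5 genes outside the set with a mean of at least 10 CPM whose log2(CPM + 0.5) followed the summed level of *Saa1* and *Saa2* most closely were *Akp3*, *Prap1*, *Alpi*, *Reg1* and *Cdhr2*, with Pearson's r of 0.93 to 0.95, given as a description of 12 libraries. Genes of this group, such as *Akp3* and *Alpi*, encode alkaline phosphatases known from the intestine. Together these 5 genes had 64387 reads in WT male 1 (3810 CPM), the library with 7 of the 14 *Saa1* reads, and 1 to 27 reads in each of the other 11 libraries. The likeness therefore rests on WT male 1, and its part in the *Saa1* count was not tested.

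*Saa3* and *Saa4* were both well counted. *Saa3* had 8.12, 2.96 and 13.8 CPM in IDH2 KO females and 6.79 and 4.50 CPM in IDH2 KO males. In WT livers it had 2.88, 2.64, 3.30 and 4.08 CPM in females and 4.14, 4.03 and 2.40 CPM in males. The WT livers thus lay in a narrow band, and 4 of the 5 IDH2 KO livers (all but IDH2 KO female 2) were above every WT liver of their sex. *Saa3* was the only 1 of the 8 tested genes with at least 4 IDH2 KO libraries in that position, which 4.19% of all tested genes reached.

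The mean level of *Saa3* was 7.22 ± 4.16 CPM in IDH2 KO livers (SD, n = 5) and 3.35 ± 0.74 CPM in WT livers (SD, n = 7). Its log2 fold change was 1.08 (standard error, SE, 0.34, edgeR adjusted p = 0.455). Without IDH2 KO female 3 the IDH2 KO mean was 5.59 ± 2.30 CPM (SD, n = 4) and the log2 fold change 0.75 (SE 0.28, edgeR adjusted p = 0.386). The direction was the same in both sexes, with log2 fold changes of 1.32 in females (0.80 without IDH2 KO female 3) and 0.69 in males. Macrophages are known to make SAA3, and the summed level of 12 Kupffer cell and macrophage markers, of which 10 had reads, was 258 to 810 CPM (median 393) in IDH2 KO livers and 171 to 615 CPM (median 256) in WT livers. The defining marker *Adgre1* had 1 read in IDH2 KO libraries and 2 in WT libraries, and *C1qc* had 0, while *Clec4f*, another Kupffer cell marker, averaged 124 CPM in IDH2 KO livers, or 93.2 CPM without IDH2 KO female 3, and 92.6 CPM in WT livers. The part of these cells in the level of *Saa3* was not tested.

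*Saa4*, the constitutive gene, had 139, 166 and 101 CPM in IDH2 KO females and 230 and 207 CPM in IDH2 KO males, against 130, 56.7, 136 and 146 CPM in WT females and 207, 103 and 236 CPM in WT males. The genotypes overlapped, with means of 169 ± 51.6 CPM in IDH2 KO livers (SD, n = 5) and 145 ± 60.6 CPM in WT livers (SD, n = 7). This gave a log2 fold change of 0.23 (SE 0.26, edgeR adjusted p = 0.899). *Saa4* supplied 88.1% to 98.2% of the reads of the 4 serum amyloid A genes in IDH2 KO livers and 95.5% to 99.0% in WT livers. These shares count raw reads and are corrected neither for transcript length nor for sequence shared between transcripts. The main transcript of *Saa4* has 2094 bases, and those of *Saa1*, *Saa2* and *Saa3* have 555 to 609. The lowest of these shares, 88.1%, was that of IDH2 KO female 3, the library with the highest *Saa3* level and the lowest *Saa4* level among IDH2 KO livers.

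*Hp* and *Hpx* were the most abundant genes of the set. *Hp*, which encodes the haemoglobin scavenger haptoglobin, lies at chr8:109575128-109579172 on the minus strand, and *Hpx*, which encodes the haem scavenger hemopexin, at chr7:105591613-105600137 on the minus strand. All 50-base windows of both main transcripts were found in no other gene. *Hp* had 2585, 2717 and 7766 CPM in IDH2 KO females and 3155 and 2488 CPM in IDH2 KO males, against 2996, 3899, 2496 and 2268 CPM in WT females and 2784, 2778 and 3057 CPM in WT males. Apart from IDH2 KO female 3, every IDH2 KO liver lay within the range of the WT livers.

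*Hpx* had 4885, 4706 and 10887 CPM in IDH2 KO females and 5493 and 4308 CPM in IDH2 KO males. In WT livers it had 6283, 5239, 6825 and 5951 CPM in females and 4829, 4407 and 5206 CPM in males. IDH2 KO female 3 was again the highest library, while the other IDH2 KO females were below every WT female. The log2 fold change in IDH2 KO livers was 0.34 for *Hp* (SE 0.28, edgeR adjusted p = 0.847) and 0.11 for *Hpx* (SE 0.22, edgeR adjusted p = 0.954). Without IDH2 KO female 3 both turned negative, to −0.071 for *Hp* (edgeR adjusted p = 0.920) and −0.15 for *Hpx* (edgeR adjusted p = 0.786). The IDH2 KO mean without that library was 2736 ± 295 CPM for *Hp* and 4848 ± 493 CPM for *Hpx* (SD, n = 4), against WT means of 2897 ± 520 CPM and 5534 ± 853 CPM (SD, n = 7).

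The genes of the molecules that *Hp* and *Hpx* bind or feed were counted in a list of 16 partners and receptors of the acute phase proteins. Of the list, 13 were tested and 0 were called in edgeR, and the median log2 fold change in IDH2 KO livers was 0.32, against −0.00 over all genes tested. At an unadjusted p under 0.05, 4 of the 13 were higher, where 3.48% of all genes were, and 1 was lower, where 3.24% of all genes were. The 4 were the haemoglobin genes *Hba-a1*, *Hba-a2*, *Hbb-bs* and *Hbb-bt*, named after their values were seen, and *Hbb-bs* averaged 140 ± 80.8 CPM in IDH2 KO livers (SD, n = 5) and 27.4 ± 29.2 CPM in WT livers (SD, n = 7), with an adjusted p of 0.358 from edgeR. All 4 were also higher at an unadjusted p under 0.05 in males alone, and 0 of them were in females alone, while the difference between the sexes passed the test for none of the 4 (edgeR adjusted p = 1.00 each). *Alas2*, the only other erythroid marker tested, had 1.93 ± 2.53 CPM in IDH2 KO livers and 3.61 ± 4.59 CPM in WT livers, a negative log2 fold change of −0.92 (edgeR adjusted p = 0.756). The 8 erythroid markers, all with reads, summed to 33.5 to 305 CPM (median 215) in IDH2 KO livers and 16.5 to 140 CPM (median 23.3) in WT livers. *Hmox1*, the haem-degrading oxygenase, averaged 20.1 ± 5.50 CPM in IDH2 KO livers and 15.8 ± 5.81 CPM in WT livers. *Lrp1*, the hemopexin receptor, averaged 443 ± 212 CPM in IDH2 KO livers and 582 ± 164 CPM in WT livers. *Cd163*, the haptoglobin receptor of macrophages, had 6 reads in all IDH2 KO libraries and 17 in all WT libraries and was not tested.

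The orosomucoid genes form a cluster on chromosome 4, with *Orm1* at chr4:63344560-63348163, another copy, *Orm3*, at chr4:63356162-63359511 and *Orm2* at chr4:63362449-63365878, all on the plus strand. The coding sequences of *Orm1* and *Orm2* have 621 bases each and are identical at 89.9% of positions, with 63 mismatches and a longest shared run of 104 bases. The second of the 6 coding exons of *Orm1* (chr4:63345069-63345211) and of *Orm2* (chr4:63362944-63363086) is shown because the levels of both genes depend on which copy a read is given to. The 26 of 143 bases that differ are in capitals.
Orm1: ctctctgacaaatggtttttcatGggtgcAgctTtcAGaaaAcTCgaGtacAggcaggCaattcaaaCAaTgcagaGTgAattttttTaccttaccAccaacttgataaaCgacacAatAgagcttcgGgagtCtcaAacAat
Orm2: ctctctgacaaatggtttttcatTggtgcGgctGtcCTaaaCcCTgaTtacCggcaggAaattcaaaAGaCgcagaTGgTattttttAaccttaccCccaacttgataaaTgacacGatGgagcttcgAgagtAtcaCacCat
Of the 50-base windows, 79.6% of those of *Orm1* and 77.3% of those of *Orm2* were found in no other gene, so 20.4% and 22.7% of the positions cannot tell them from another gene, and the sources used here do not say how the authors counted such reads.

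*Orm1* was the more abundant copy in every library and varied less than *Orm2*. It had 1065, 1137 and 2394 CPM in IDH2 KO females and 1307 and 647 CPM in IDH2 KO males, against 1377, 717, 1423 and 1328 CPM in WT females and 1051, 847 and 1175 CPM in WT males. The genotypes overlapped, and the extremes of the 12 livers were IDH2 KO female 3 and IDH2 KO male 2. The log2 fold change was 0.17 (SE 0.27, edgeR adjusted p = 0.931) and turned to −0.095 without IDH2 KO female 3 (edgeR adjusted p = 0.919).

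*Orm2* varied much more. It had 82.3, 56.7 and 241 CPM in IDH2 KO females and 47.7 and 7.51 CPM in IDH2 KO males. In WT livers it had 54.5, 19.8, 90.0 and 74.4 CPM in females and 13.5, 11.8 and 15.4 CPM in males. In each sex the IDH2 KO livers overlapped or straddled the WT livers, since IDH2 KO male 1 was above and IDH2 KO male 2 below every WT male. The mean was 87.0 ± 90.2 CPM in IDH2 KO livers (SD, n = 5), or 48.6 ± 31.1 CPM without IDH2 KO female 3 (SD, n = 4), and 39.9 ± 32.7 CPM in WT livers (SD, n = 7). On the log2 scale the fold change was 1.06 (SE 0.45, edgeR adjusted p = 0.686) and 0.62 without IDH2 KO female 3 (edgeR adjusted p = 0.726). It passed the threshold only when no filter on low counts was set (log2 fold change 1.03, edgeR adjusted p = 0.00645), and over the 21 alternatives the adjusted p ran from 0.00645 to 0.975.

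As a share of the reads of *Orm1* in the same library, *Orm2* made up 7.73%, 4.99% and 10.1% in IDH2 KO females and 3.65% and 1.16% in IDH2 KO males, against 3.96%, 2.76%, 6.33% and 5.61% in WT females and 1.28%, 1.39% and 1.31% in WT males. This ratio does not depend on the scaling of a library. All 3 WT males were below every WT female, and the same held for all but 1 male when IDH2 KO livers were added, since IDH2 KO male 1 was above WT female 2. *Orm3* had 9 reads over the IDH2 KO livers, with 8 in female 3 alone, and 4 reads over the WT livers.

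*Lcn2*, at chr2:32384633-32388252 on the minus strand, had the highest fold change of the set, and that value rested on IDH2 KO female 3. It had 14.6, 8.14 and 153 CPM in IDH2 KO females and 9.51 and 1.19 CPM in IDH2 KO males. In WT livers it had 6.99, 9.31, 5.91 and 10.4 CPM in females and 1.60, 1.89 and 1.40 CPM in males. IDH2 KO female 3 exceeded every other library, IDH2 KO female 1 was above every WT female, and IDH2 KO female 2 was among them. IDH2 KO male 1 was above and IDH2 KO male 2 below every WT male.

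The mean of *Lcn2* was 37.4 ± 65.1 CPM in IDH2 KO livers (SD, n = 5), or 8.36 ± 5.53 CPM without IDH2 KO female 3 (SD, n = 4), and 5.36 ± 3.79 CPM in WT livers (SD, n = 7). The log2 fold change was 2.42 (SE 0.64, edgeR adjusted p = 0.246) and 1.06 without IDH2 KO female 3 (SE 0.44, edgeR adjusted p = 0.466). Without a filter on low counts it was 2.37 and passed the threshold (edgeR adjusted p = 5.51e-13), while over the 21 alternatives the adjusted p ran from 5.51e-13 to 0.921.

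Neutrophils also make lipocalin-2. The 12 neutrophil markers, of which 2 had no read in any library, summed to 2.73 to 3.77 CPM in the 3 IDH2 KO females, with 3.77 CPM in IDH2 KO female 3, to 0.0518 and 0.313 CPM in the IDH2 KO males, and to 0.564 to 1.02 CPM in the 7 WT livers. Most reads in the IDH2 KO libraries came from *Retnlg* (59 reads, against 6 in WT libraries), *Csf3r* (53, against 59 in WT libraries), *S100a8* (33, against 18 in WT libraries) and *Ltf* (19, against 4 in WT libraries). *S100a9* and *Cxcr2* were at 0 in all libraries, *Camp* had 2 reads in IDH2 KO libraries and 0 in WT libraries, and *Elane* had 0 reads in IDH2 KO libraries and 3 in WT libraries. Their part in the *Lcn2* level was not tested.

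**Figure D2:**
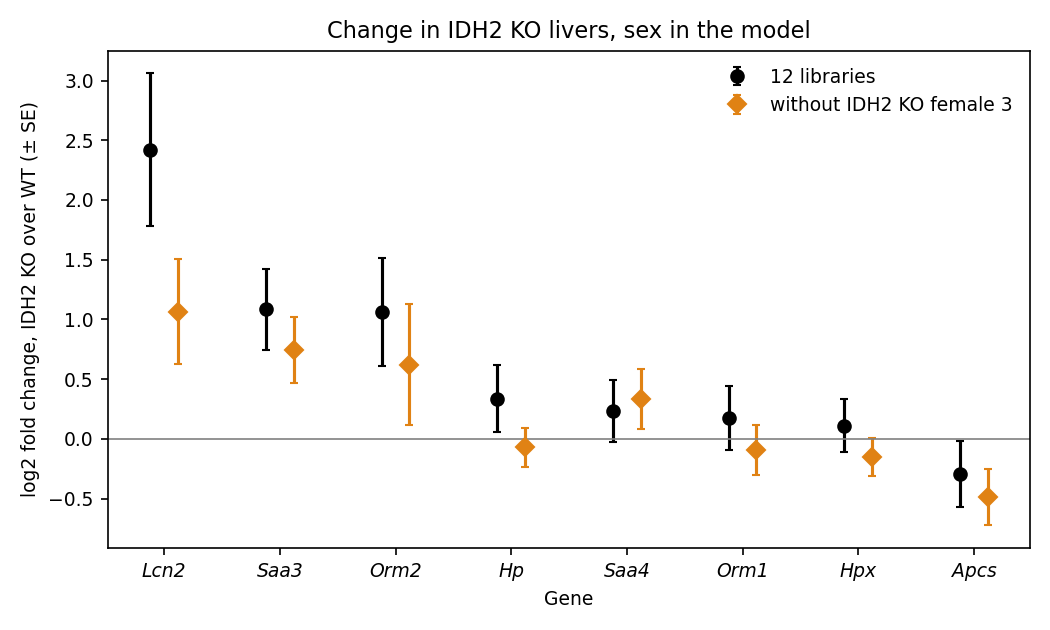
Log2 fold change of IDH2 KO over WT livers with its standard error for the 8 tested genes, from edgeR with sex in the model, for all 12 libraries (black) and without IDH2 KO female 3 (orange). Without that library *Lcn2* moves to 1.06, *Hp*, *Orm1* and *Hpx* fall below 0, and *Saa3* is at 0.75.

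*Apcs*, at chr1:172893961-172895041 on the minus strand, had 92.0, 144 and 192 CPM in IDH2 KO females and 46.3 and 27.1 CPM in IDH2 KO males. In WT livers it had 128, 195, 95.8 and 120 CPM in females and 53.4, 86.1 and 62.7 CPM in males. Both IDH2 KO males were below every WT male in CPM, whereas the females of the genotypes overlapped. This order of the males depended on the TMM scaling. In RPM, IDH2 KO male 1 had 56.2, above WT male 1 (52.9) and WT male 3 (50.7). The contrast in males was not run without scaling. Over both sexes the log2 fold change was −0.30 (SE 0.28, edgeR adjusted p = 0.871), and −0.49 without IDH2 KO female 3 (edgeR adjusted p = 0.522). In males it was −0.86 (SE 0.40) and in females 0.06 (SE 0.32), which turned to −0.18 without IDH2 KO female 3, and the test of the difference between the sexes did not pass (−0.92, SE 0.51, edgeR adjusted p = 1.00).

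In the separate contrasts the outcome was the same. In females 0 of the 8 genes were called (0.174% of all 8644 genes tested), and 2, *Lcn2* and *Saa3*, had an unadjusted p under 0.05 (5.25% of all genes). Neither did without IDH2 KO female 3, when the fold change of *Lcn2* in females was 0.49 on the log2 scale, against 2.79 with it. In males 0 were called (0.0925% of all genes), and 1, *Apcs*, had an unadjusted p under 0.05 (4.27% of all genes). For the interaction of genotype and sex 0 were called, as were 0.0% of all genes, and 0 of the 8 had an unadjusted p under 0.05, against 3.17% of all genes. DESeq2 called 0 of the 8 in each of these contrasts, where it called 54, 41 and 8 of 17196 genes in all. Without a filter on low counts edgeR called *Lcn2* in females and in males, where 84 and 151 of 17289 genes were called. The contrast in males rests on 2 IDH2 KO males.

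Part of the set was low in WT males. *Orm2*, *Lcn2* and *Apcs* were lower in WT males than in WT females at an unadjusted p under 0.05, where 3.45% of all genes were, and 0 of the 8 were higher, where 2.44% of all genes were. After adjustment 0 of the 8 were called in edgeR (0.659% of all 8644 genes were). DESeq2 called *Orm2* (log2 fold change −2.13, adjusted p = 0.0381), where it called 106 of 17196 genes in all. Without a filter on low counts edgeR called *Orm2* and *Lcn2*, where 251 of 17289 genes were called. For 4 genes, *Orm2*, *Lcn2*, *Apcs* and *Hpx*, all 3 WT males were below every WT female in CPM, which held for 5.5% of all genes tested. For *Apcs* and *Hpx* this order depended on the TMM scaling. In RPM, WT male 2 had 120 for *Apcs* and 6121 for *Hpx*, above WT female 3 (94.4) and WT female 1 (5129). The log2 fold change of *Hpx* in this contrast was −0.34 (SE 0.29). This contrast was not run without scaling.

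*Orm2* averaged 13.6 ± 1.80 CPM in WT males (SD, n = 3) and 59.7 ± 30.3 CPM in WT females (SD, n = 4), with a log2 fold change of −2.15 (SE 0.65, edgeR adjusted p = 0.320, and 4.55e-07 to 0.740 over the 15 alternatives). *Lcn2* averaged 1.63 ± 0.25 CPM in WT males and 8.16 ± 2.08 CPM in WT females (−2.32, SE 0.88, edgeR adjusted p = 0.575). *Apcs* averaged 67.4 ± 16.8 CPM in WT males and 135 ± 42.5 CPM in WT females (−1.01, SE 0.33, edgeR adjusted p = 0.428). In IDH2 KO livers, 1 of the 2 males, male 1, had *Lcn2* and *Orm2* levels above those of every WT male, while for *Apcs* both IDH2 KO males were below every female of either genotype. The remaining genes, *Saa3*, *Saa4*, *Hp* and *Orm1*, overlapped between WT males and WT females.

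**Figure D3:**
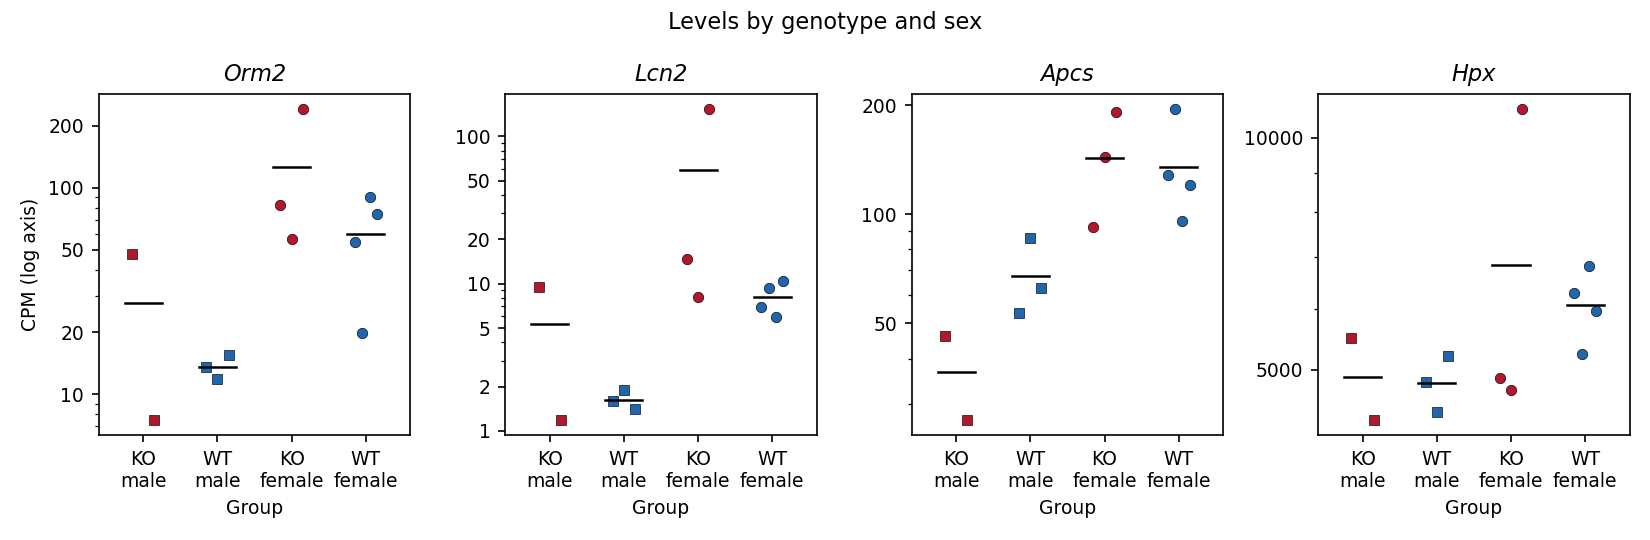
Levels of *Orm2*, *Lcn2*, *Apcs* and *Hpx* in CPM on log axes for IDH2 KO males, WT males, IDH2 KO females and WT females, with 1 point per mouse and a bar at the mean. In each panel the 3 WT males sit below the 4 WT females, and IDH2 KO female 3 is the highest female for *Orm2*, *Lcn2* and *Hpx*. Without the TMM factor this order of the sexes does not hold for *Apcs* and *Hpx*.

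Per kilobase of the main transcript, the order of levels was led in both genotypes by *Hpx*, *Hp* and *Orm1*. These had 4040 ± 1824, 2782 ± 1683 and 1690 ± 842 CPM per kb in IDH2 KO livers (SD, n = 5), against 3692 ± 569, 2154 ± 387 and 1459 ± 351 CPM per kb in WT livers (SD, n = 7). *Hpx* was above *Hp*, and *Hp* above *Orm1*, in all 5 IDH2 KO livers. Their ranges overlapped there through IDH2 KO female 3, and without it the means of 3234 ± 329, 2035 ± 219 and 1340 ± 362 CPM per kb (SD, n = 4) belonged to ranges that did not overlap. In WT livers the ranges of *Hpx* and *Hp* did not overlap, and those of *Hp* and *Orm1* did. A clear step followed, since the lowest *Orm1* value was 834 CPM per kb in IDH2 KO livers and 925 CPM per kb in WT livers, above every value of the genes that came next.

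*Orm2*, *Apcs* and *Saa4* formed a middle tier whose neighbours could not be ordered beyond their spread, at 112 ± 116, 103 ± 70.2 and 80.5 ± 24.7 CPM per kb in IDH2 KO livers and 51.5 ± 42.2, 109 ± 49.3 and 69.3 ± 28.9 CPM per kb in WT livers. With IDH2 KO female 3 left out, *Orm2* averaged 62.7 CPM per kb, *Apcs* 79.7 and *Saa4* 88.5, still with overlapping ranges. In IDH2 KO livers this tier was not separate from the genes below it. The lowest *Orm2* value there, 9.69 CPM per kb, lay within the ranges of *Lcn2* and *Saa3*, with or without IDH2 KO female 3. In WT livers the ranges of *Orm2* and *Saa3* did not overlap. *Lcn2* and *Saa3* were lowest among the tested genes, at 40.8 ± 71.1 and 13.0 ± 7.49 CPM per kb in IDH2 KO livers and 5.86 ± 4.14 and 6.04 ± 1.33 CPM per kb in WT livers, and they overlapped each other. Without IDH2 KO female 3 the order of their IDH2 KO means turned, with 9.14 ± 6.05 CPM per kb for *Lcn2* and 10.1 ± 4.15 CPM per kb for *Saa3* (SD, n = 4). *Saa1*, with at most 0.147 CPM per kb in IDH2 KO livers and 0.680 CPM per kb in WT livers, and *Saa2*, at 0, were below all others. Counted over transcripts rather than genes, the share of 50-base windows found in no other transcript was 1.08% for *Saa2*, 4.39% for *Lcn2*, 9.29% for *Saa3* and 17.7% for *Saa1*. It was 46.5% for *Hp* and 65.7% for *Hpx*, the most abundant genes, and 77.3% or more for *Orm1*, *Orm2*, *Saa4* and *Apcs*. The part of this difference in the order of levels was not tested.

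From mouse to mouse, 7 of 28 pairs among the 8 genes with a mean of at least 1 CPM were related over the 12 libraries at an adjusted p under 0.05 for Pearson's r and 5 for Spearman's rho, by two-sided permutation tests on log2(CPM + 0.5). *Hpx* and *Orm1* had r = 0.87 (permutation p = 0.00016, adjusted p = 0.00238) and rho = 0.87 (permutation p = 0.00049, adjusted p = 0.0137). This held with r = 0.72 without the 2 libraries farthest from the median of *Hpx*, 0.75 within the 7 WT livers, 0.86 within the 7 females and 0.61 within the 6 females other than IDH2 KO female 3. *Orm1* and *Orm2* had r = 0.85 (adjusted p = 0.0042) and rho = 0.78 (adjusted p = 0.0443), with r = 0.74 within WT livers and 0.84 within those 6 females, and these genes share part of their sequence. Of those 6 females WT female 2 was lowest for both genes (717 and 19.8 CPM), where the others had at least 1065 and 54.5 CPM. The value of r without WT female 2 was not computed.

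*Orm2* and *Lcn2* were also among these pairs, but 4 of the 5 males lay below every female for both genes, so the pooled value spans separate clusters and is not given. Within the 7 females r was 0.71, and within the 6 females other than IDH2 KO female 3 it was 0.01, so the relation did not hold within that sex without this library. Of the other pairs counted, r within the 7 females was 0.77 for *Hpx* and *Lcn2*, 0.68 for *Orm1* and *Lcn2* and 0.74 for *Hpx* and *Orm2*. These values were −0.65, −0.41 and 0.30 without IDH2 KO female 3, so those relations did not hold within females either. *Saa4* and *Apcs* were counted too, as a negative relation. All 5 males lay below every female for *Apcs* in CPM, the scale used here, so the pooled value also spans separate clusters and is not given. Within the 7 females r was −0.68, and −0.69 without IDH2 KO female 3. Of the 6 females left, WT female 2 had the highest *Apcs* (195 CPM) and the lowest *Saa4* (56.7 CPM). Of the rest, IDH2 KO female 2 had the highest level of both (144 and 166 CPM), and r without WT female 2 was not computed. The inverse relation was thus not shown within females apart from WT female 2. *Hp* had no relation past the threshold with any other gene of the set, and its r with *Hpx* was 0.75 over all libraries and −0.03 without IDH2 KO female 3.

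**Figure D4:**
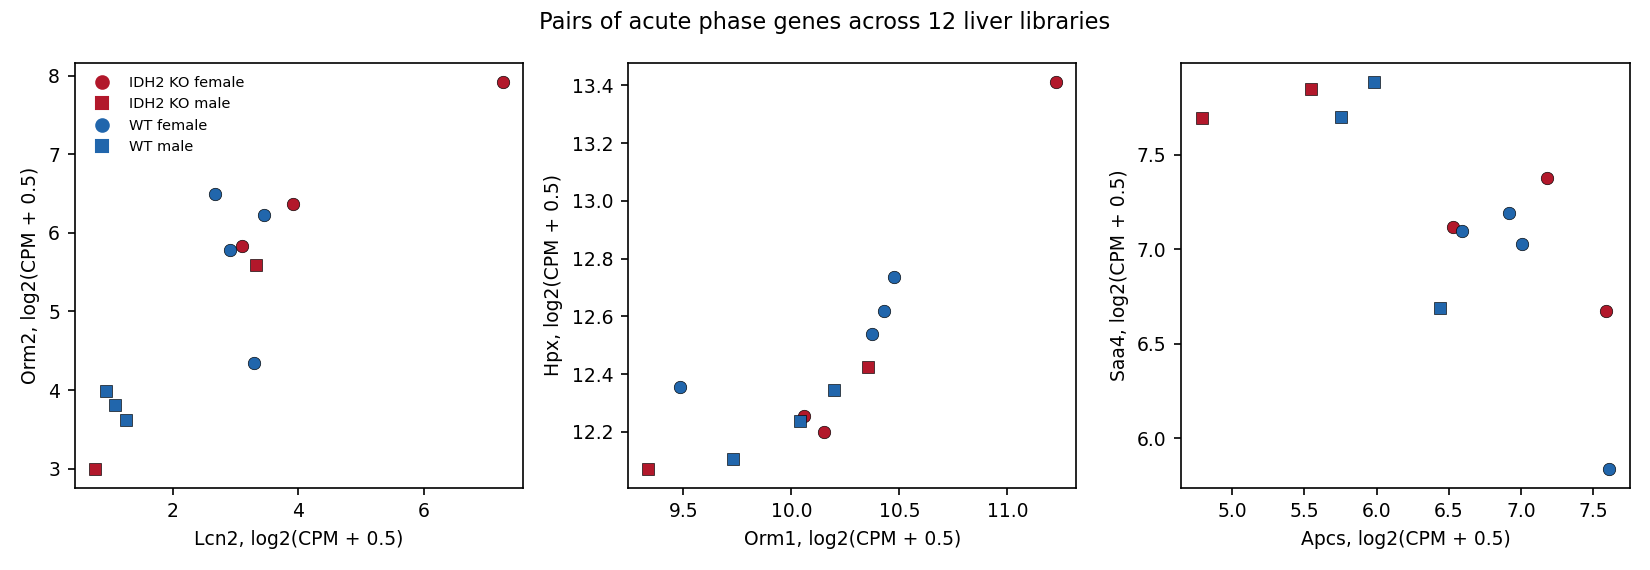
Log2(CPM + 0.5) of *Orm2* against *Lcn2*, *Hpx* against *Orm1* and *Saa4* against *Apcs* in the 12 liver libraries, with IDH2 KO in red, WT in blue, circles for females and squares for males. IDH2 KO female 3 lies at the top right of the *Orm2* and *Hpx* panels. In the *Saa4* panel every male lies below every female for *Apcs*, so the points form separate clusters.

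The genes whose levels were most like those of *Lcn2* and *Orm2* were listed after their values were seen. For *Lcn2* the closest of the 2483 genes compared were *Rpph1* (r = 0.94), the RNA of ribonuclease P, *Rad9a* (0.92), *Spp2* (0.90), *Ap5s1* (0.90) and *Csf1r* (0.89), the receptor of the macrophage growth factor CSF1, over 12 libraries. *Rpph1* had 73.5 CPM in IDH2 KO female 3 and at most 8.17 CPM elsewhere. For *Orm2* they were *AW112010* (0.93), *Dgkz* (0.90), *Hpd* (0.88), an enzyme of tyrosine breakdown, *Cyp17a1* (0.88), a steroid hydroxylase, and *Scly* (0.87). Without IDH2 KO female 3 the values of r were 0.71 to 0.87 for the genes like *Lcn2* and 0.79 to 0.92 for those like *Orm2*. These values pool the sexes, and most males lay below every female for both *Lcn2* and *Orm2*. In WT livers *Csf1r* was at 8.54 to 9.41 CPM in males and 10.7 to 26.8 CPM in females. *Rpph1* was at 1.78 to 2.67 CPM in WT males and 3.13 to 8.17 CPM in WT females. The values of r therefore span separate clusters, and r within a sex was not computed.

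The promoters of 8 of the 10 genes were matched in the RefSeq table (GRCm38.p6), as windows of 250 bases before and 50 after the start site. They were searched on both strands for TTCNNNGAA (STAT), CTGGGAA (interleukin-6 response), TTGCNNAA (C/EBP) and GGNNTTTCC (NF-kB). A C/EBP match was present in 7 of the 8 (all but *Apcs*), against 10.8% of all 32851 promoters of that length. *Apcs* had the STAT match (8.30% of all promoters) and the interleukin-6 response match (11.1%), and *Saa3* had the NF-kB match (5.82%). A match is a description of the letters and not a site in use, and no match says only that the letters are not in the window. The 250 bases upstream are shown for the genes with the highest fold changes in IDH2 KO livers and for *Saa1*, which was near 0, with matches in capitals, from *Saa3* (chr7:46715677-46715926, minus strand), *Lcn2* (chr2:32387740-32387989, minus strand), *Orm2* (chr4:63362199-63362448, plus strand) and *Saa1* (chr7:46742981-46743230, minus strand).
Saa3: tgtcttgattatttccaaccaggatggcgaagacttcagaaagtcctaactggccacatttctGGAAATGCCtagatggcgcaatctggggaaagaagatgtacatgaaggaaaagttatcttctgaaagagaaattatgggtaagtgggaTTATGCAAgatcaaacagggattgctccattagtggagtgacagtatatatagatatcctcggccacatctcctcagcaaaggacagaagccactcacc
Lcn2: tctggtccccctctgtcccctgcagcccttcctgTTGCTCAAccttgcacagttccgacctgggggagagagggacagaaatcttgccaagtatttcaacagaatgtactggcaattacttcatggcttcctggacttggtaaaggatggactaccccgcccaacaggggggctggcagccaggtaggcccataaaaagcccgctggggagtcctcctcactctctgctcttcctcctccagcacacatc
Orm2: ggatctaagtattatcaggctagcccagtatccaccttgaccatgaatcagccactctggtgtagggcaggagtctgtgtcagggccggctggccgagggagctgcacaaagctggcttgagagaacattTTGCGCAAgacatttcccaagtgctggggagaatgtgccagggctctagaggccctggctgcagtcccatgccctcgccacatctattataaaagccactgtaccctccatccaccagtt
Saa1: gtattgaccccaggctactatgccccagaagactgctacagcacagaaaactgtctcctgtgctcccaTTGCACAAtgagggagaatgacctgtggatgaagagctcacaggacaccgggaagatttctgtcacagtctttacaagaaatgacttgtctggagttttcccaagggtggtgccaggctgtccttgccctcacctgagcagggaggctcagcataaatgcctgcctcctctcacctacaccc
Relative to the start site, the C/EBP match begins at base −99 in *Saa3*, −216 in *Lcn2*, −120 in *Orm2* and −182 in *Saa1*, and the NF-kB match of *Saa3* begins at base −187. In the promoter of *Saa2* the C/EBP match has the same 8 letters as in *Saa1* and begins at base −183. The relation of these matches to the counts was not tested.

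The other genes of the acute phase response gave few calls between the genotypes, where 0.381% of all genes were called. Of 25 other positive acute phase genes, 5 had no read in any library, 18 were tested and 0 were called in edgeR, with a median log2 fold change of −0.20. None had an unadjusted p under 0.05 in either direction, where 3.48% of all genes were higher and 3.24% lower. *Itih4* averaged 113 ± 67.0 CPM in IDH2 KO livers and 68.3 ± 33.3 CPM in WT livers, and *Lrg1* averaged 418 ± 381 CPM in IDH2 KO livers and 266 ± 45.1 CPM in WT livers. Both were highest in IDH2 KO female 3, *Itih4* at 219 CPM and *Lrg1* at 1095 CPM. Without it the IDH2 KO means were 86.2 CPM for *Itih4* and 248.96 CPM for *Lrg1*, the second of which is below the WT mean. The list went both ways in that library. *C3*, *Crp* and *Steap4*, named after their values were seen, had 438, 145 and 3.77 CPM there. Their IDH2 KO means without it were 4460, 316 and 53.3 CPM, and their WT means 4486, 357 and 49.6 CPM. *Lbp*, the lipopolysaccharide-binding protein gene, averaged 189 ± 73.9 CPM in IDH2 KO livers and 149 ± 43.3 CPM in WT livers. *Fgb*, a fibrinogen chain gene, averaged 9573 ± 3941 CPM in IDH2 KO livers and 10284 ± 2267 CPM in WT livers, and *Serpina3n* had 0 reads.

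Of 12 negative acute phase genes, whose products fall in a response, 12 were tested. In IDH2 KO against WT livers 0 were called (0.381% of all genes were), with a median log2 fold change of −0.17. At an unadjusted p under 0.05, where 3.48% of all genes were higher and 3.24% lower, 1 was higher and 1 lower. These were *Apoa2* and *Fetub*, named after their values were seen. *Apoa2*, an apolipoprotein gene, averaged 15188 ± 14150 CPM in IDH2 KO livers, or 8902 CPM without IDH2 KO female 3, and 7237 ± 2666 CPM in WT livers, and *Fetub*, the fetuin-B gene, averaged 6.69 ± 2.04 CPM in IDH2 KO livers and 10.6 ± 2.37 CPM in WT livers. *Alb* averaged 119023 ± 56838 CPM in IDH2 KO livers and 131965 ± 34926 CPM in WT livers, *Ttr* averaged 5384 ± 2593 CPM in IDH2 KO livers and 5962 ± 977 CPM in WT livers, and *Rbp4* averaged 8.12 ± 2.13 CPM in IDH2 KO livers and 10.5 ± 4.53 CPM in WT livers. In IDH2 KO female 3 *Alb* was at 175938 CPM and *Ttr* at 9822 CPM, whereas the IDH2 KO means without it were 104794 and 4275 CPM. *Fetub* went the other way, with 4.21 CPM in that library and a mean of 7.31 CPM without it. Between the sexes 1 gene of this list was called, where 0.659% of all genes were. *Serpina6*, the corticosteroid-binding globulin gene, averaged 333 ± 85.6 CPM in WT males (n = 3) and 926 ± 191 CPM in WT females (n = 4), a log2 fold change of −1.48 (SE 0.29, edgeR adjusted p = 0.0300).

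The signals that drive the response were mostly outside the reach of these counts. Of 8 cytokine ligand genes, 6 (among them *Il6*) had no read in any library and none was tested. Of 27 receptor and transducer genes, 8 had no read and 15 were tested, 0 of them called (0.381% of all genes were), with a median log2 fold change of −0.00. *Il6st*, the shared signalling receptor gp130, averaged 69.7 ± 47.0 CPM in IDH2 KO livers and 81.7 ± 12.1 CPM in WT livers, and it had 7.25 CPM in IDH2 KO female 3, without which the IDH2 KO mean was 85.3 CPM, above the WT mean. *Il6ra* averaged 0.545 ± 0.318 CPM in IDH2 KO livers and 0.533 ± 0.233 CPM in WT livers, *Stat3* averaged 0.973 ± 0.558 CPM in IDH2 KO livers and 0.971 ± 0.555 CPM in WT livers, and *Il1r1* had 0 reads. *Cebpb* averaged 2.90 ± 0.88 CPM in IDH2 KO livers and 4.92 ± 2.52 CPM in WT livers, *Cebpd* averaged 3.14 ± 2.12 CPM in IDH2 KO livers and 2.89 ± 0.93 CPM in WT livers, and *Rela* had 2 reads in all.

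Among 10 feedback inhibitors, 5 had no read, including *Socs3*, which STAT3 switches on, and 1 was tested. This was *Nfkbia*, an inhibitor of NF-kB, at 25.1 ± 11.1 CPM in IDH2 KO livers and 23.9 ± 3.63 CPM in WT livers (log2 fold change 0.073, edgeR adjusted p = 0.977). Of 10 glucocorticoid-responsive genes, 7 were tested and 1 was called (0.381% of all genes were), and the median log2 fold change was −0.40, with 4 of the 7 negative. *Dusp1*, a MAP kinase phosphatase gene, was higher, at 54.8 ± 43.3 CPM in IDH2 KO livers (SD, n = 5), against 11.98 ± 6.95 CPM in WT livers (SD, n = 7), with a log2 fold change of 1.99 (SE 0.36, edgeR adjusted p = 0.0223). Its highest levels, 77.7 and 118.5 CPM, were those of the IDH2 KO males, which were not the livers with the highest *Lcn2*, *Saa3* or *Orm2*, IDH2 KO female 3 had 28.4 CPM, and IDH2 KO female 2, at 10.4 CPM, lay within the WT range of 8.53 to 27.7 CPM.

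Among the marker lists of other cell types, 3 genes passed the threshold in another contrast, all of blood cells. *Igkc*, an immunoglobulin light chain gene, was higher in IDH2 KO than in WT females (log2 fold change 2.21, SE 0.39, edgeR adjusted p = 0.0328), where 0.174% of all genes were called. *Alas2*, the haem synthesis enzyme of red cells, and *Ighm*, an immunoglobulin heavy chain gene, were higher in WT males than in WT females (log2 fold changes 4.54 and 2.61, edgeR adjusted p = 0.000896 and 0.0154), where 0.659% of all genes were called. For both genes all 3 WT males were above every WT female, and *Ighm* was highest in WT male 1 (117 CPM, against 31.1 and 31.5 CPM in the other WT males). Most other members of both lists had negative fold changes in that contrast. Of 5 erythroid markers tested 4 were negative, with *Hba-a1* and *Hba-a2* lower at an unadjusted p under 0.05, and of 8 B, plasma and T cell markers 5 were negative, with *Ms4a1* and *Trbc2* lower at that level. The summed B, plasma and T cell markers were 12.6 to 72.9 CPM (median 47.0) in IDH2 KO livers and 13.2 to 127 CPM (median 21.0) in WT livers. The adipocyte markers, 4 of 6 with no read, summed to 1.54 to 3.07 CPM in IDH2 KO livers and 1.12 to 2.78 CPM in WT livers.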

How the data were processed

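The 12 livers gave 1 library each, and their genotype and sex were taken from the labels. The deposited values were raw read counts, whole numbers with 1 row per gene, and a filtered table of 8730 of those rows was not needed here. The submitters' processing notes name FastQC and the GRCm38.p5 build. The aligner and counter, and what was done with reads matching more than 1 gene, are not given in the sources used. The main test was the robust quasi-likelihood F-test of edgeR 4.0.16 under R 4.3.3, after TMM scaling and filterByExpr (minimum count 10, minimum total 15), with terms for sex and genotype. P-values were adjusted by Benjamini-Hochberg over all genes tested, and calls made at 0.05. Contrasts within a sex, between WT males and WT females, and of the interaction came from a fit of 4 group means. Alternatives were RLE size factors, no scaling, library sizes that omit the 10 most abundant genes, no filter on low counts, DESeq2 1.42.0, limma 3.58.1 on log2 of RPM plus 1 or 0.5, dropping the sex term, blocking on the replicate number, and omitting each library in turn.

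On simulated counts with known changes, the main fit of IDH2 KO against WT called 36% of 2-fold and 93% of 4-fold changes. A 2-fold change was thus often missed. CPM and relations used Python 3.11.15, numpy 2.4.6, scipy 1.17.1 and pandas 2.3.3, with 100000 resamples. Levels per kb, windows and coding sequences used GENCODE M21 transcripts on GRCm38, and promoters a RefSeq table. No libraries agreed within sampling noise. Nothing states that mice of a group came from separate litters or cages, so p-values measure the spread between these mice.

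The 10 genes, the lists and the rule for named genes were chosen with earlier results of these data known. The rule took the 10 genes, *Idh2*, every list gene past the threshold in a contrast, 21 genes from the lists whatever their values, and the 5 genes most like *Saa1* and *Saa2* together. List genes named for having no or few reads, and the genes most like *Lcn2* and *Orm2*, were chosen after their values were seen.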

Additional observations from a re-analysis of the deposited data

Results flagged for a closer look

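In groups of 4 to 10 libraries, a library was marked when its gap to the nearest other library was over Dixon's 95% critical share of the group's range. Of 24 groups of the 8 tested genes, 4 were marked. Chance marks about 1 in 20 groups where values are normally distributed and groups are independent. The groups here share libraries and hold CPM without a log, so that rate may not apply to them.

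3 of the 4 were IDH2 KO female 3 among the 5 IDH2 KO livers. It had 7766 CPM of *Hp*, where the other IDH2 KO livers had 2488 to 3155 CPM. It had 10887 CPM of *Hpx*, where the others had 4308 to 5493 CPM. It had 153 CPM of *Lcn2*, where the others had 1.19 to 14.6 CPM. The fourth was WT female 2 among the 4 WT females, with 717 CPM of *Orm1*, where the other WT females had 1328 to 1423 CPM.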

How the results depend on the processing

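Leaving out IDH2 KO female 3 turned the fold changes of *Hp*, *Hpx* and *Orm1* to −0.071, −0.15 and −0.095, and over the libraries left out in turn they ran from −0.071 to 0.45, −0.15 to 0.20 and −0.095 to 0.33. No other fold change of the 8 genes between the genotypes changed sign under any of the 21 alternatives. Without a filter on low counts, edgeR called 2 of the acute phase genes in IDH2 KO against WT livers, 1 in females, 1 in males and 2 between WT males and WT females. In these contrasts it called 205, 84, 151 and 251 of 17289 genes in all. DESeq2 called 1 of the acute phase genes between WT males and WT females, among 106 of 17196 genes. In IDH2 KO against WT livers, 29 genes in all were called, 205 without the filter and 65 by DESeq2, and 19 to 33 with 1 library left out, the lowest without IDH2 KO female 1. The cause was not tested. The alternatives for the fold changes between WT males and WT females, the libraries left out in every contrast other than IDH2 KO against WT, and the levels per kb without IDH2 KO female 3 were chosen after seeing the data.

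The replicate numbers of the labels name no shared litter or day, and same-numbered mice of the genotypes did not deviate together (correlations of −0.18 to 0.08). With a replicate block within sex, 22 genes in all and 0 of the acute phase genes were called, and the log2 fold change of *Lcn2* was 1.39 (edgeR adjusted p = 0.921). Counts of *Saa1* and *Saa2* are too few for any comparison.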
